A study of Mus musculus with 2 samples.

Results

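Complex I of the respiratory chain, NADH:ubiquinone oxidoreductase, is built from subunits encoded in the nucleus, whose gene symbols begin with Nduf, and from core subunits encoded in mitochondrial DNA. The transcripts of the nuclear genes were followed here in the liver of mice fed oleanolic acid, and the mitochondrial genes were not analysed here. Every probe set annotated to a single gene symbol beginning with Nduf was taken, which gave 74 of the 22690 probe sets of the array and 39 of its 12393 named genes. Of these genes 38 belong to complex I: 6 nuclear core subunits, 27 accessory subunits and 5 assembly factors of the Ndufaf series. The remaining gene, Ndufa4, bears the family name but encodes a subunit now assigned to complex IV. Ndufa11, Ndufb4, Ndufs6, Ndufaf2, Ndufaf6, Ndufaf8 and Ndufa4l2 are among the genes of the family that were not analysed here.

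Complex I takes electrons from NADH, passes them through a flavin and a chain of iron-sulfur clusters to ubiquinone, and pumps protons across the inner mitochondrial membrane. The core subunits carry out this chemistry, the accessory subunits surround and stabilise them, and the assembly factors help to build the enzyme without staying in it. In liver the enzyme reoxidises the NADH made by fatty acid oxidation and the tricarboxylic acid cycle.

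The study held 2 arrays, each of liver RNA pooled from male mice on a C57BL/6J background that lack apolipoprotein E, a genotype that both pools share and that raises plasma cholesterol and causes atherosclerosis. The mice were 2 months old, and both pools received a semipurified Western diet for 11 weeks. The diet of the second pool contained 0.01% oleanolic acid, a plant triterpenoid, which gave 10 mg per kg per day. With n = 1 pooled array per diet there was no replicate of either diet, no test was possible, and every difference below describes these arrays only. How many mice formed each pool is not given in the sources used here.

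Values are linear MAS5 signals, the summary of brightness that the submitters deposited for each probe set, and differences are log2 ratios of oleanolic acid over control. A probe set counted as measured when 1 or both of its signals were at or above the array's median (61.5 on the control array, 59.3 on that of oleanolic acid), and 70 of the 74 Nduf probe sets were measured. A gene's ratio averages those of its measured probe sets. Its error, called the probe set SD, is the SD between those probe sets or, for a gene with 1 probe set, the pooled SD of all genes of like signal. It covers probe error within these arrays and not the variation between mice. Over all 7137 measured genes the median log2 ratio was 0.0012 and the central 95% ran from -0.56 to 0.51. The single Apoe probe set had signals of 194 and 232, and whether it lies in the disrupted part of the gene is not known here. The 5 hepatocyte markers with a probe set had control signals of 8329 to 12639, as fits the liver label.

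Promoter sequences are shown because complex I genes are known targets of nuclear respiratory factor 1 (NRF1) and of YY1, which act on many mitochondrial genes. RefSeq promoters of GRCm38.p6, 250 bases before to 50 after the start of a gene, were found for 35 of the 38 genes. The letters GCGCANGCG, from the NRF1 motif, occurred on either strand in 7 of 35 members (20.0%), in 16.5% of the measured genes with a promoter and in 7.03% of all genes in the table. The windows below are 30 bases long, read 5′ to 3′ on the strand of the gene, and show the first match in capitals, which in Ndufa6 and Ndufa8 is the motif read from the opposite strand.
Ndufa5, chr6:24527697-24527726, minus strand: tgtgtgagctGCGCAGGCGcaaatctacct
Ndufa6, chr15:82354248-82354277, minus strand: cgtggcaccgCGCGTGCGCacgctgaaggg
Ndufa8, chr2:36049348-36049377, minus strand: tagagcagtgCGCTTGCGCgtcgctggaga
Ndufaf4, chr4:24897960-24897989, plus strand: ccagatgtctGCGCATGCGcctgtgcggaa
Ndufaf5, chr2:140170652-140170681, plus strand: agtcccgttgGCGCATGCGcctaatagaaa
Ndufb10, chr17:24724406-24724435, minus strand: tcacctttctGCGCAGGCGtagaggtcccg
Ndufs5, chr4:123718265-123718294, minus strand: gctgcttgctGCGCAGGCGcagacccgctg
The 7 genes with the NRF1 letters did not lie on one side. Ndufaf4 and Ndufaf5, whose capitals are identical, had the lowest and the highest log2 ratio of the assembly factors (-0.44 and 0.27). The median of the 7 was 0.10, against 0.05 for the members without the letters. This spelling was adopted after a longer one, with a further C at its end, had been searched and its result seen. The longer one left out Ndufb10 and was in 6 of 35 members (17.1%), 12.7% of measured genes and 5.19% of all genes, with medians of 0.06 in the members with it and 0.05 in those without. The spelling thus moved the difference between the medians, and nothing is read from it.

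The letters AAGATGGCG, a YY1 motif, occurred in 4 of the 35 members (11.4%), in 4.01% of the measured genes with a promoter and in 1.64% of all genes. In each of the 4 members they lay after the start of the gene and on its own strand.
Ndufa9, chr6:126849096-126849125, minus strand: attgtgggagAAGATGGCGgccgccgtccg
Ndufc1, chr3:51408914-51408943, minus strand: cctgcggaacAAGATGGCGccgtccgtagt
Ndufs4, chr13:114388045-114388074, minus strand: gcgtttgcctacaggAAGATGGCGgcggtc
Ndufs7, chr10:80249463-80249492, plus strand: ggccgaggccAAGATGGCGgcgctggcggg
These 4 genes had log2 ratios between -0.08 and 0.07, with a median of 0.01. Of the other motifs searched on both strands, the GABP letters CCGGAAG were in 14.3% of members, 21.6% of measured genes and 9.93% of all genes. The E-box CACGTG was in 5.71%, 12.7% and 8.09% of these, and the GC box GGGCGG in 51.4%, 69.6% and 38.2%. The estrogen-related receptor letters TCAAGGTCA were in 0 of 35 members, 0.408% of measured genes and 0.466% of all genes. These matches describe letters in these windows only.

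Transcripts of complex I were close to equal on both arrays, with a small offset towards the oleanolic acid array. The median log2 ratio of the 38 genes was 0.06, and 30 lay above 0 (78.9%) and 8 below, against 50.2% and 49.7% of all measured genes. Past 0.5 there was 1 of 38 members above, Ndufb1, a share near the 2.63% of all genes. Ndufb1 counted as measured only through its oleanolic acid signal. Below -0.5 there were 0 members, against 3.24% of all genes. The 37 genes other than Ndufb1 lay between -0.44 and 0.27, and all 37 fell inside the central 95% of all genes. For 23 of the 38 the distance from 0 was no larger than the probe set SD of the gene. Outside that error 13 members were above 0 and 2 below. By the same rule 19.2% of all measured genes were above and 21.3% below, and of the 1784 genes in the highest of 4 signal bands 446 were above and 331 below.

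**Figure D1:**
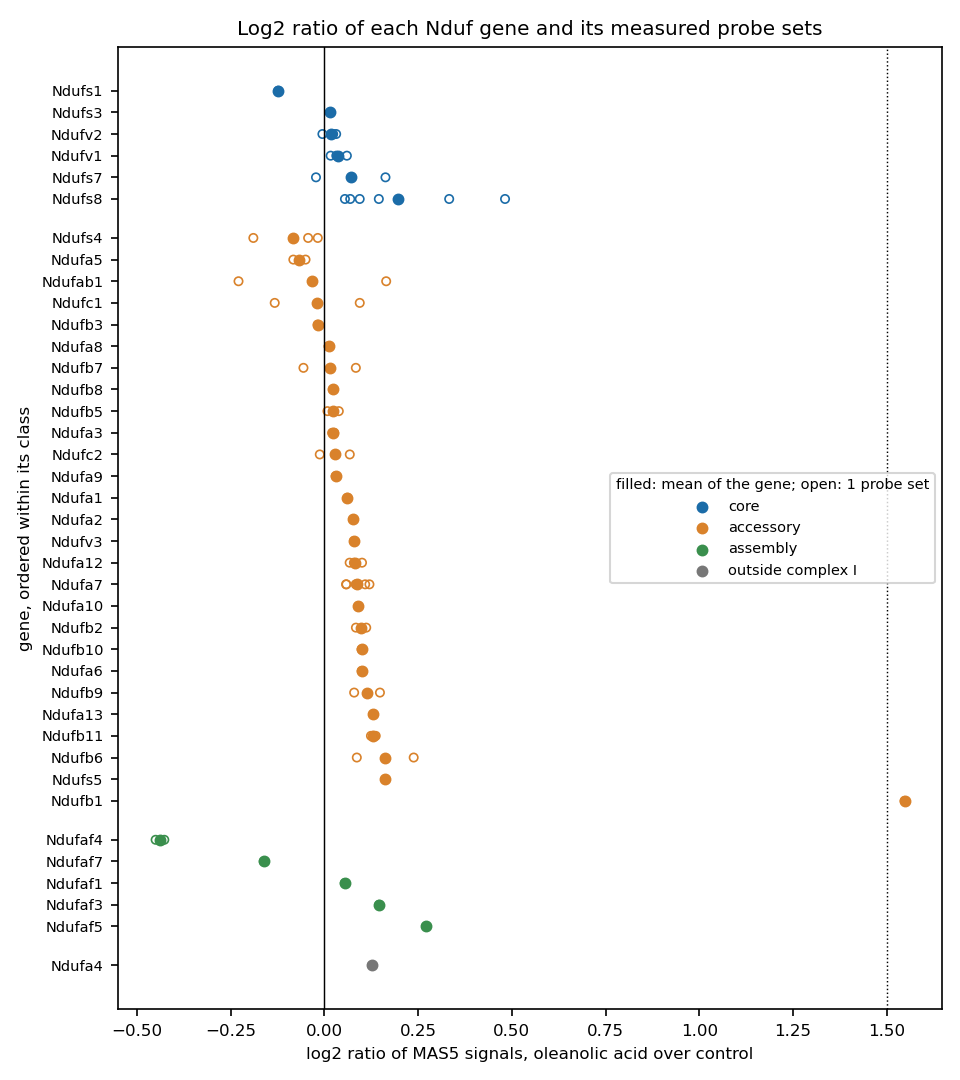
Log2 ratio of MAS5 signals, oleanolic acid over control, on the horizontal axis for each of the 39 Nduf genes, ordered within core, accessory and assembly classes and Ndufa4; filled points are gene means, open points single measured probe sets, and the dotted line marks 1.5. All genes but Ndufb1 (1.55) sit between -0.44 and 0.27.

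The share above 0 moved with the scaling of the arrays. With quantile normalization 23 of 38 were above 0 (60.5%, against 52.2% of all genes), and with intensity-dependent centring 22 of 38 (57.9%, against 52.0%). Bright genes as a whole were offset in the same direction: in the highest of 4 signal bands, 595 to 12040.0 units, 58.2% of 1784 genes lay above 0 with a median of 0.03. In that band the 31 members had a median of 0.06, and 26 were above 0 (83.9%). Their interquartile range was 0.08, against 0.17 for all genes of the band. A narrow range was not particular to complex I. Over all their measured genes, complexes III, IV and V had interquartile ranges of 0.08, 0.05 and 0.02, and complex II had 0.22. Of the 30 members above 0, 19 stayed above 0 in every alternative setting that gave them a value.

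**Figure D2:**
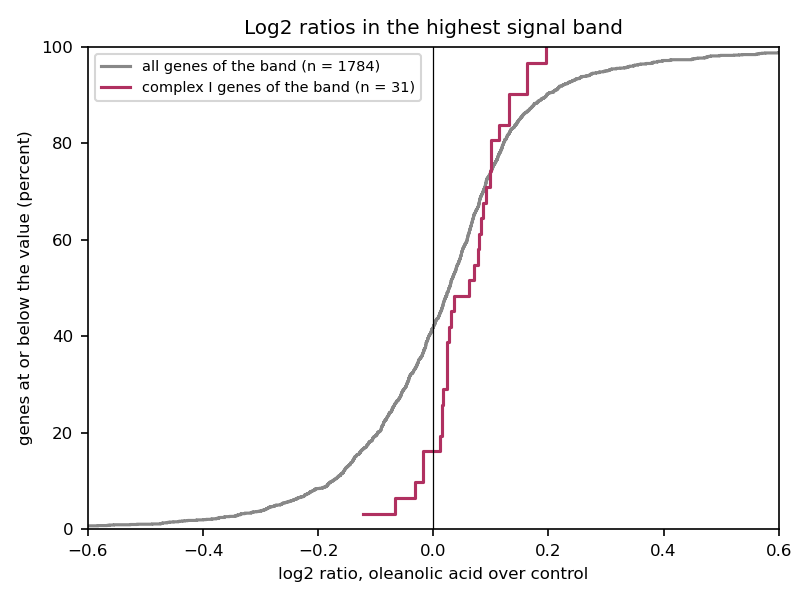
Cumulative share of genes (vertical axis, percent) at or below each log2 ratio of oleanolic acid over control (horizontal axis) for the 31 complex I genes and all 1784 genes of the highest signal band; the axis ends at 0.6 on either side. The complex I curve is steeper, with an interquartile range of 0.08 against 0.17. Complexes III, IV and V, not drawn, had 0.08, 0.05 and 0.02 over all their measured genes, and complex II had 0.22.

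The core subunits were close to equal on both arrays. Their median log2 ratio was 0.03 and their mean 0.04, with 5 of 6 above 0 and all 6 within 0.20 of it. In the arm that oxidises NADH, Ndufv1, which binds the flavin, had signals of 1919.9, 2308 and 2445 on its 3 control probe sets, against 1943, 2407 and 2499.7 with oleanolic acid. Each was higher with oleanolic acid by a small step, for a log2 ratio of 0.04 (probe set SD 0.02). Ndufv2, which holds an iron-sulfur cluster beside the flavin subunit, had a log2 ratio of 0.02 (probe set SD 0.02, n = 3 probe sets). Ndufs1, the largest iron-sulfur subunit of this arm, had the lowest value of the class, reading 1189.9 against 1093 on its only probe set, for a log2 ratio of -0.12 (probe set SD 0.13).

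In the arm that hands electrons to ubiquinone, Ndufs3 read 2685 and 2714, a log2 ratio of 0.02 (probe set SD 0.13). Ndufs7, which carries the last iron-sulfur cluster before ubiquinone, was at 0.07 (probe set SD 0.13), but its 2 probe sets gave 0.16 and -0.02. Ndufs8, an iron-sulfur subunit of the same arm, had the highest log2 ratio of the core class, 0.20 (probe set SD 0.17, n = 6 probe sets). All 6 probe sets of Ndufs8 were higher with oleanolic acid, from 0.06 to 0.48. The probe set at 0.48 was the dimmest, with signals of 120.0 and 168, while the brightest, with 3528 and 4444, was at 0.33. The other 4 probe sets of Ndufs8 lay between 0.06 and 0.15, so its value rests in part on which probe sets are counted.

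**Figure D3:**
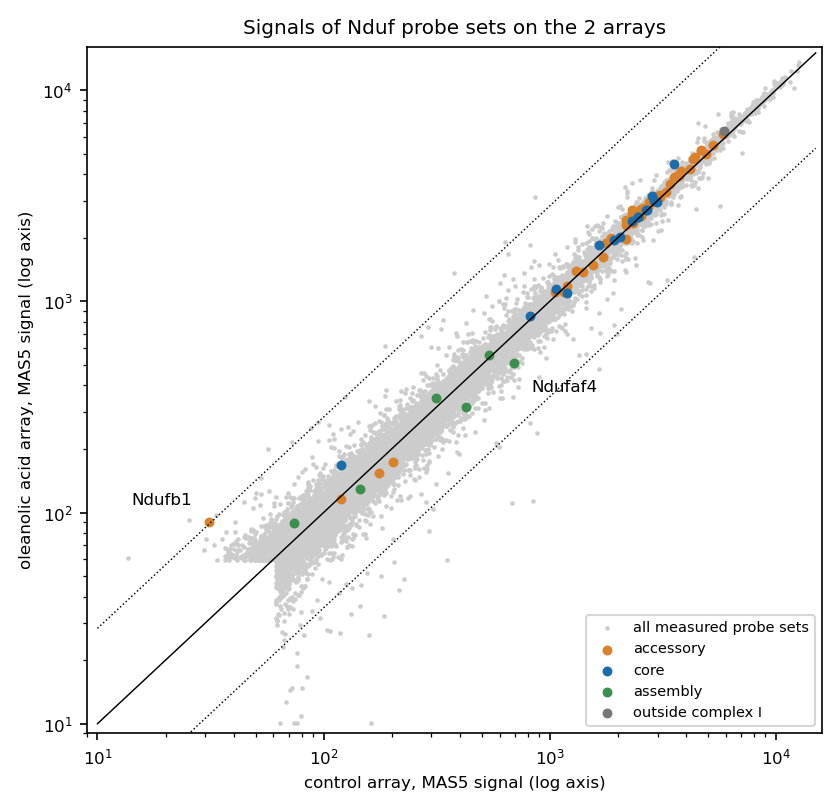
MAS5 signals of the 70 measured Nduf probe sets (coloured by class) and of all measured probe sets (grey) on the control (horizontal) and oleanolic acid array (vertical), both log axes; the solid line marks equal signals and the dotted lines a log2 ratio of 1.5 in either direction. Ndufb1, at 31.0 and 90.6, lies on the upper dotted line, and the other Nduf points lie near the solid line.

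Accessory subunits had a median log2 ratio of 0.08, and 0.07 without Ndufb1. Of 27 genes 22 were above 0 and 5 below. The class median exceeded that of the core by 0.05, a difference that was not tested. The pooled SD between probe sets of a complex I gene was 0.10, which is not the error of a difference between class medians. Without probe sets whose suffix marks possible cross-hybridization or shared transcripts, the accessory minus core difference was -0.00058.

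By place in the enzyme, the NADH-oxidising module held 7 measured genes with a median of 0.04 and the ubiquinone module 4 with 0.04. The proximal membrane arm held 8 with 0.04 and the distal membrane arm 10 with 0.10. Ndufa6 (0.10), Ndufa7 (0.09), Ndufa9 (0.03) and Ndufab1 (-0.03) were assigned to no module here, so these medians leave them out. Without Ndufb1 the distal arm also had a median of 0.10 over 9 genes, 8 of them above 0. In that arm Ndufb11 was the most uniform, with control signals of 3555, 4314 and 4394 and oleanolic acid signals of 3875, 4723 and 4832. All 3 of its probe sets were higher in the oleanolic acid array, for a log2 ratio of 0.13 (probe set SD 0.01). Ndufb6 had a log2 ratio of 0.16 (probe set SD 0.11), made of 0.24 and 0.09, and Ndufb9 was at 0.11 (probe set SD 0.05). Ndufb3 was the only gene of the distal arm below 0, at -0.02 (probe set SD 0.13).

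In the proximal membrane arm Ndufs5 had signals of 2169 and 2428. Its log2 ratio of 0.16 (probe set SD 0.13) equalled that of Ndufb6, and only Ndufb1 was higher among the accessory subunits. Ndufa13, also known as GRIM-19 for a role in cell death, was at 0.13 (probe set SD 0.13), and Ndufa1, a small membrane subunit encoded on the X chromosome, at 0.06 (probe set SD 0.13). Ndufc1 was at -0.02 (probe set SD 0.16), with 1 probe set at 0.09 and the other at -0.13.

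The lowest accessory subunits were Ndufs4, Ndufa5 and Ndufab1. Ndufs4, a subunit of the NADH-oxidising arm whose loss causes Leigh-like disease, had control signals of 119, 176 and 1198 against 116, 154 and 1184 with oleanolic acid. All 3 probe sets of Ndufs4 were lower in the oleanolic acid array, for a log2 ratio of -0.08 (probe set SD 0.09). Ndufa5 was at -0.07 (probe set SD 0.02), with control signals of 1152 and 1722 against 1113 and 1626 with oleanolic acid. Only Ndufa5 and the assembly factor Ndufaf4 lay below 0 by more than their own error, which for both was the SD of 2 probe sets. Ndufs1 (-0.12) and Ndufaf7 (-0.16), with 1 probe set each, were held to the wider pooled SD (0.13 and 0.25). The rule therefore does not rank these genes by reliability. Ndufab1, the mitochondrial acyl carrier protein, which also serves fatty acid synthesis in the organelle, was at -0.03 (probe set SD 0.28) because its measured probe sets went opposite ways, -0.23 and 0.17. Between these ends Ndufa7 had 5 probe sets, all higher in the oleanolic acid array, from 0.06 to 0.12.

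Ndufb1, a small single-span subunit of the distal membrane arm, stood apart from every other member. Its only probe set read 31.0 on the control array and 90.6 with oleanolic acid, 2.92-fold, for a log2 ratio of 1.55 (probe set SD 0.27). That was 1.49 above the median of the other 37 genes and 1.28 above the next highest, Ndufaf5. Among all 7137 measured genes Ndufb1 ranked 8 from the top, and 0.112% of genes were above 1.5. It was the only complex I gene with no probe set at the median of the control array. Every other measured Nduf probe set had a control signal of at least 73.9, and Ndufb1 entered the measured genes only through its oleanolic acid signal. Of the 1785 genes of the lowest signal band, 25.4 to 125 units, 0.224% were above 1.5. The rank and both shares also count genes that reached the median on both arrays. A gene that reached it on 1 array only, such as Ndufb1, was thereby selected for a gap between its signals. The rank and shares therefore do not measure how rare the Ndufb1 value is. The size of the Ndufb1 value depended on how low signals were treated: with the floor at the median of each array its log2 ratio was 0.56 and its rank 105, and with log2(signal + 16) it was 1.18 and its rank 12. With both signals required to reach the median, Ndufb1 gave no value. In that setting 5 of 6805 genes were above 1.5, against 8 of 7137 as reported.

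The start of Ndufb1 lies 236 bases from that of Cpsf2, a gene for a subunit of the pre-mRNA cleavage machinery read from the opposite strand. The measured probe set of Cpsf2 read 152 and 165, a log2 ratio of 0.11, and a dimmer one had 54.3 and 45.7 (-0.25). Cpsf2 therefore had no difference of the size seen for Ndufb1 on either probe set. The 30 bases just before the start of Ndufb1 are shown because it is the outlying member.
Ndufb1, chr12:101975739-101975768, minus strand: tcatcagggctggcgcggcgagtggcagct
None of the 6 motifs searched was found in the 300-base window of Ndufb1, which says only that these letters are not in it.

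The assembly factors ran from -0.44 to 0.27 over 5 genes, with a median of 0.05 and a mean of -0.03. Their interquartile range was 0.31, against 0.05 for the core and 0.08 for the accessory subunits, whose full range is wider through Ndufb1. None of the 5 lay in the highest signal band, where all 6 core genes lay. In the lower bands, from the dimmest up, all measured genes had interquartile ranges of 0.39, 0.27 and 0.23. The part of signal level in the spread of the assembly factors was not tested. Ndufaf4, a partner of Ndufaf3 in early steps of assembly, read 425 and 698 on the control array and 316 and 511 with oleanolic acid. Both probe sets were lower in the oleanolic acid array and agreed closely, at -0.43 and -0.45, for a log2 ratio of -0.44 (probe set SD 0.02). It was the lowest member of complex I, and 4.64% of all measured genes lay below it.

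Its partner Ndufaf3 went the other way, with signals of 315 and 348, a log2 ratio of 0.15 (probe set SD 0.17). Ndufaf7, a methyltransferase that modifies a core subunit, read 145 and 129, a log2 ratio of -0.16 (probe set SD 0.25). Ndufaf1, which acts on the membrane arm, was at 0.05 (probe set SD 0.17). Ndufaf5, which hydroxylates a core subunit, read 73.9 and 89.2, a log2 ratio of 0.27 (probe set SD 0.27). The 250 bases before the start of Ndufaf4 are shown because it is the lowest member. Capitals mark the NRF1 letters, which overlap on both strands here, and 2 overlapping GC boxes, and RefSeq places a noncoding gene, Gm46848, over part of this stretch.
Ndufaf4, chr4:24897833-24898082, plus strand: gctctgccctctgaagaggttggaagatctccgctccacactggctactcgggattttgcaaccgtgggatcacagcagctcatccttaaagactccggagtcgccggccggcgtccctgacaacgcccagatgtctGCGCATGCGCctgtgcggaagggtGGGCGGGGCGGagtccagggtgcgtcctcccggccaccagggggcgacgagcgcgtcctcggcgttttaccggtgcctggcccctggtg

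Assembly factors of complex I with other names had a median log2 ratio of -0.05, with 3 of 7 above 0 and 7 of 7 within 0.5 of it. Foxred1, an oxidoreductase needed for assembly, was the lowest at -0.29 (probe set SD 0.25), and Dmac1 the highest at 0.08 (probe set SD 0.13). Acad9, an acyl-CoA dehydrogenase that doubles as an assembly factor, was at -0.05 (probe set SD 0.03).

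The other complexes of the chain had medians close to that of complex I. Each list also held assembly factors, such as Sdhaf1, Bcs1l, Surf1 and Atpaf2. Complex II, succinate dehydrogenase, was at 0.02 (5 of 7 above 0, 71.4%) and complex III, the cytochrome bc1 complex, at 0.05 (7 of 10, 70.0%). Complex IV, cytochrome c oxidase, was at 0.09 (11 of 14, 78.6%) and complex V, the ATP synthase, at 0.08 (15 of 17, 88.2%). Of all measured genes 50.2% were above 0, and of those in the highest signal band 58.2%. Sdhc (0.30, probe set SD 0.29) and Sdhd (0.27, probe set SD 0.22), the membrane anchors of complex II, were its most extreme members. In complex III these were Uqcrq (0.13) and a value of 0.09 shared by Uqcrfs1 and Uqcr11, and in complex V Atpaf2 (0.22, probe set SD 0.25) and Atp5g1 (0.20, probe set SD 0.13). Complex IV held 1 gene past 0.5, Sco2, a copper chaperone for cytochrome c oxidase, reading 330.3 in the control and 741 with oleanolic acid, at 1.17 (probe set SD 0.17). Its most extreme member below 0 was Cox7c at -0.15 (probe set SD 0.27). Ndufa4, counted with neither complex here, read 5869 and 6409.5, at 0.13 (probe set SD 0.13).

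**Figure D4:**
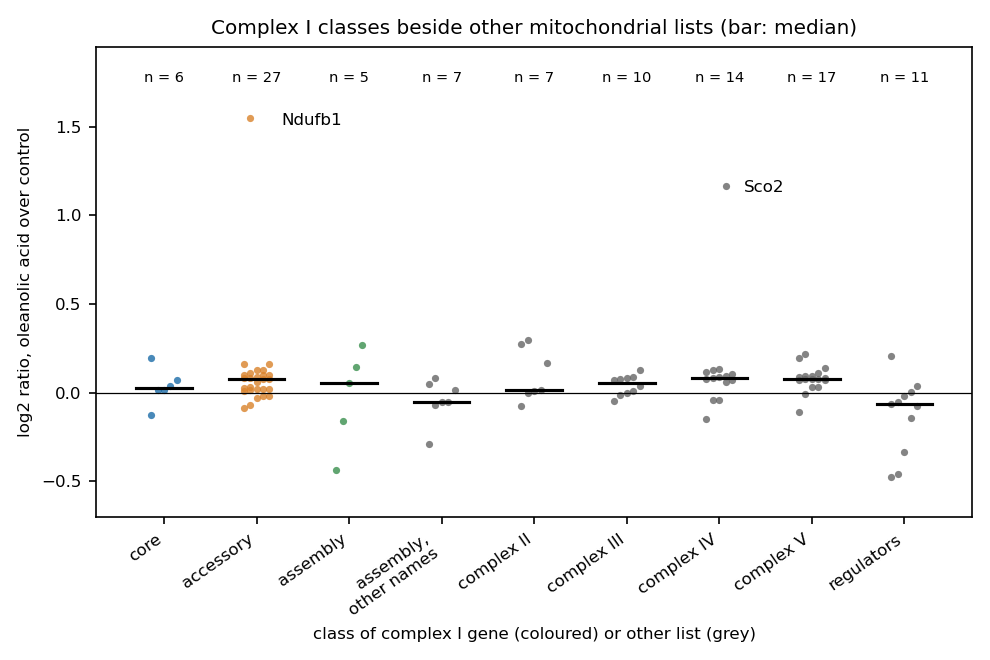
Log2 ratio of oleanolic acid over control (vertical axis) for each measured gene of the 3 complex I classes (coloured) and of 6 other mitochondrial lists (grey); each point is a gene and each bar the median of its class or list. Medians lie between -0.06 and 0.09, and Ndufb1 and Sco2 stand above 1.

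Regulators of nuclear genes for mitochondrial proteins had a median log2 ratio of -0.06. Of 11 genes 3 were above 0 (27.3%), against 50.2% of all measured genes. Some of those below 0 lay within their error, such as Tfb1m (-0.06, probe set SD 0.20) and Gabpa (-0.02, probe set SD 0.40). The coactivator genes Ppargc1b (446 against 321 units, -0.47, probe set SD 0.17) and Ppargc1a (-0.46, probe set SD 0.15, n = 5 probe sets) had the lowest values, followed by Esrra at -0.33 (probe set SD 0.25). Nrf1, the factor whose motif was searched, was at -0.05 (probe set SD 0.27), Yy1 at 0.04 (probe set SD 0.13) and Tfam, which packages mitochondrial DNA, at 0.20 (probe set SD 0.13).

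Markers of other tissues differed between the pools. A marker was counted as lower by its brightest probe set, and over all measured genes 49.7% had a log2 ratio below 0. The summed signal of 7 exocrine pancreas genes was 1573 in the control pool against 430.1 with oleanolic acid, and 7 of 7 were lower in the latter. For brown fat, a tissue rich in mitochondria, 5 of 5 genes were lower, with sums of 310.5 and 126, and 3 of them had a measured probe set. Ucp1 had 76.4 and 1.00 and Cox8b 64.0 and 9.50. The sum of 8 macrophage genes was 14339 and 13437, with 8 of 8 lower, and that of 5 hepatocyte genes 80238 and 80405. For 5 B and plasma cell genes the sum was 1594 and 482, with 3 of 5 lower. The brightest Ighm probe set had 839.8 and 114, while Cd79a (7.30 and 7.80) and Cd79b (40.6 and 41.2) were not lower. White fat (3 genes, 57.5 and 11.2) and muscle (7 genes, 35.7 and 63.9) had low sums. Sums for endothelial cells (1489.9 and 1397), stellate cells (6525 and 6436), cholangiocytes (135 and 135), T and NK cells (198 and 135) and erythroid cells (396 and 379) complete the lists. The part of these cells in the complex I values was not tested, and in pooled tissue fewer cells of a type and less RNA per cell cannot be told apart.

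**Figure D5:**
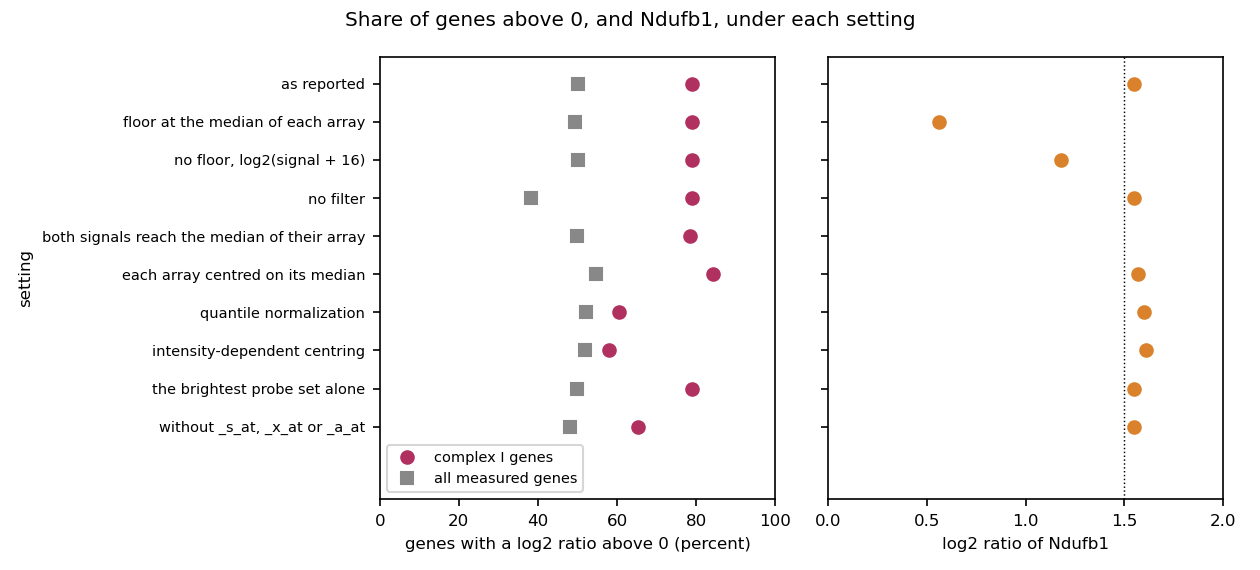
Left, share of genes with a log2 ratio above 0 (percent) among complex I genes and all measured genes under each processing setting; right, log2 ratio of Ndufb1 under the same settings, with the dotted line at 1.5. The complex I share runs from 57.9% to 84.2%, and Ndufb1 from 0.56 to 1.61, with no value where both signals had to reach the median.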

How the data were processed

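Liver RNA of 2 pools was measured on Affymetrix 3' arrays. The authors deposited linear intensities, called signals here, and the submitters' processing notes name MAS5 without a version. The deposited medians were 61.7 (control) and 59.6 (oleanolic acid), and the mean after trimming 2% at either end was 300.1 on both, so the scale is linear and no further scaling was applied. Whether the authors used other steps is not given in the sources used here, and the table used here has no detection calls. Arrays were grouped by their diet label, since the growth protocol of both names oleanolic acid.

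Of the probe sets, 64 are array controls, 20380 carried 1 symbol in the platform annotation, 691 several and 1555 none. Only the first kind was named, and all 39 Nduf genes matched RefSeq of GRCm38.p6 by identifier. Signals below the 25th percentile of an array (10.7 and 10.1) were raised to it before taking log2, and 11642 probe sets were measured. The pooled probe set SD over 2427 genes was 0.20, and 0.27, 0.25, 0.17 and 0.13 in 4 bands of rising signal. With 1 array per diet, the number of arrays sets the precision.

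The members, classes, lists and the rule for named genes were chosen with earlier results of these data known. That rule takes Ndufb1, the 3 highest and 3 lowest genes of each class, members with unmeasured probe sets, members whose probe sets differ by over 0.5 (there were 0), Ndufa4, the 2 most extreme genes of each other list and the neighbour of Ndufb1. Genes named beyond it were chosen after their values were seen. The procedure was tested on simulated data with the same noise at every signal level. Recovery was required of brighter genes only, so the test does not cover dim genes such as Ndufb1. Python 3.11.15, pandas 2.3.3, numpy 2.4.6 and statsmodels 0.14.6 (lowess, fraction 0.3) were used. RefSeq promoters were found for 35 of the 38 complex I genes. The NRF1 letters were shortened by 1 base for a formatting reason after the longer spelling had been searched, so this choice was made with the outcome known, and both outcomes are given. Alternatives covered the floor, the filter, the scaling, the choice of probe sets and the members counted.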

Additional observations from a re-analysis of the deposited data

How the results depend on the processing

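Over 11 alternatives the median log2 ratio of complex I genes ran from 0.02 to 0.08, that of the accessory subunits from 0.02 to 0.10, and over 9 that of the core from 0.0016 to 0.05 and of the assembly factors from 0.05 to 0.08. Accessory minus core was below 0 only without suffixed probe sets (-0.00058). Complex III was below 0 in 1 of 9 alternatives (-0.0019). Ndufb1 fell to 0.56 with the floor at the median of each array and to 1.18 with log2(signal + 16), and its distance from the other members to 0.50 and 1.13. With both signals required to reach the median there were 0 members past 0.5, because Ndufb1 was then not counted. Without suffixed probe sets 26 members were measured and 17 were above 0 (65.4%), against 20 of the same 26 as reported, since Ndufb7 (-0.06), Ndufc2 (-0.01) and Ndufv2 (-0.005) changed sign. Single members whose value moved by more than 0.10 were Ndufs8 (0.33), Ndufab1 (0.17) and Ndufc1 (0.09) with the brightest probe set alone, Ndufab1 (-0.23) and Ndufc1 (-0.13) without suffixed probe sets, and Ndufa10 (0.20) with no filter. No paired analysis was possible because each diet has 1 array. Small ratios of bright genes cannot be told from a difference in scaling with 1 array per diet.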

Other observations

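In 15 members both a plain probe set and one with a suffix for possible cross-hybridization or shared transcripts were measured, and the suffixed kind had the higher log2 ratio in 11 (73.3%), with a median difference of 0.03. Over all 1287 measured genes with both kinds the share was 55.5% and the median difference 0.02. Neither median was tested, and the pooled SD of 0.10 between probe sets of a complex I gene is not their error. The widest gaps were those of Ndufab1 (0.39) and Ndufc1 (0.23), and 4 members, Ndufs7 (-0.19), Ndufs4 (-0.16), Ndufs8 (-0.14) and Ndufa5 (-0.03), differed in the other direction.

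The 4 Nduf probe sets that were not measured belong to genes with a brighter one. Those of Ndufa10 (signals of 34.8 and 42.9) and Ndufa12 (46.2 and 54.5) were higher in the oleanolic acid array, that of Ndufab1 had 28.0 and 27.0, and that of Ndufb9 had 2.40 and 10.6. Of the 19 members with at least 2 measured probe sets, the probe sets shared a sign in 13 and differed in sign in 6.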
